A study of Homo sapiens with 12 samples.

Results

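The miR-15 and miR-16 family is a group of mature miRNAs that share a seed, the stretch of bases 2 to 8 that pairs with target mRNAs, and that is known for restraining the cell cycle through targets such as cyclins and BCL2. Its genes lie in pairs of neighbouring hairpins. MIR15A and MIR16-1 sit in the lncRNA gene DLEU2, whose region is often lost in chronic lymphocytic leukaemia, MIR15B and MIR16-2 sit in SMC4, which encodes a condensin subunit, and MIR195 sits beside MIR497. A hairpin is cut from its primary transcript by Microprocessor and then by Dicer, and 1 strand of the resulting duplex usually accumulates in Argonaute as the guide while the other is turned over.

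The 5 mature miRNAs described here are hsa-miR-16-5p, hsa-miR-15a-5p, hsa-miR-15b-5p, hsa-miR-15b-3p and hsa-miR-195-5p (hsa, for human, is left out below), chosen by name from the 2652 mature miRNAs in each deposited table. They were measured in Huh7, a human hepatocellular carcinoma cell line, in 12 small RNA libraries from 4 independent experiments. Control cells received DMSO without the uridine analogue 4-thiouridine (4SU), DMSO cells received DMSO with 500 µM 4SU, and PlaB cells received pladienolide B, an inhibitor of the splicing factor SF3B1, with 500 µM 4SU, for 4 h in each case (n = 4 libraries per condition). The sample labels give the PlaB concentration as 500 µM as well. The study's methods name 500 µM for 4SU only in this experiment. They give a far lower PlaB concentration for all experiments without another stated value, so the PlaB figure of the labels is doubtful.

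In SLAMseq, 4SU that was built into new RNA is alkylated and read as C in place of T, so the T>C conversion rate, the conversions at covered T positions as a percentage of those positions, reports miRNA made during the labelling. Control libraries give the background of the same measure. The tables held 1667668 to 2393680 reads on miRNAs in the Control libraries, 1968612 to 3880241 in DMSO and 1522210 to 1979696 in PlaB. DMSO replicates 1 and 2 were re-amplified, prepared again and summed over 3 sequencing runs, according to the labels, and were the 2 deepest libraries. The hepatocyte miRNAs miR-122-5p, miR-192-5p and miR-194-5p summed to between 96895 and 148320 CPM (the authors' read counts scaled to one total in every library), whereas 5 blood cell miRNAs summed to at most 6.90 CPM, 3 muscle miRNAs to at most 10.2 CPM, 2 neuronal miRNAs to at most 54.9 CPM and 2 stromal miRNAs to 89.4 to 167 CPM.

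The mature sequences are shown because the number of U residues sets how many positions can carry a conversion and because the shared seed defines the family. They are those of RefSeq (GRCh38.p14), in which all 5 members were matched, and capitals mark the seed.
miR-16-5p: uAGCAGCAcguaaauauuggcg
miR-15a-5p: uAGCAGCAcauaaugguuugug
miR-15b-5p: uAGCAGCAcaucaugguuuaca
miR-195-5p: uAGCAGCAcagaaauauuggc
miR-15b-3p: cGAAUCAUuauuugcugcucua

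The first 4 members had the seed AGCAGCA, which 7 of the 2370 mature sequences in the RefSeq table carry, the others being miR-424-5p, miR-497-5p and miR-6838-5p. miR-15b-3p, the opposite strand of the MIR15B hairpin, had a different seed. The shared seed held 0 U residues, so every convertible position of those 4 miRNAs but the first base lay downstream of it. miR-16-5p held 5 U residues, miR-15a-5p 7, miR-15b-5p 6, miR-195-5p 4 and miR-15b-3p 9. Base by base from the 5′ end, miR-16-5p matched miR-195-5p at 19 of 21 positions, miR-15a-5p at 16 of 22 and miR-15b-5p at 14 of 22, and miR-15a-5p matched miR-15b-5p at 18 of 22.

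In GENCODE version 44 on GRCh38, MIR15A (chr13:50049119-50049201, minus strand) and MIR16-1 (chr13:50048973-50049061, minus strand) were 57 bases apart in intron 6 of 13 of the canonical DLEU2 transcript, 76340 and 76480 bases from its start. MIR15A overlapped an exon in 8 of the 29 annotated DLEU2 transcripts, and MIR16-1 in 0 of them. MIR15B (chr3:160404588-160404685, plus strand) and MIR16-2 (chr3:160404745-160404825, plus strand) were 59 bases apart in intron 5 of 23 of the canonical SMC4 transcript, 4938 and 5095 bases from its start. MIR195 (chr17:7017615-7017701, minus strand) and MIR497 (chr17:7017911-7018022, minus strand) were 209 bases apart in the lncRNA gene MIR497HG, exonic in 1 of its 2 transcripts and intronic in the other.

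Mature miR-16-5p is identical from MIR16-1 and MIR16-2. In the deposited tables it was 1 entry over both loci, and 99.7% of its reads in each condition were counted as mapping to several places, so its reads and conversions cannot be divided between chromosomes 13 and 3. The share of such reads was at most 0.385% in any condition for each of the other 4 members. The 2 loci can be told apart only by their 3p strands, miR-16-1-3p and miR-16-2-3p, which are described beside the members.

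The first comparison concerned the level of each miRNA, on the CPM scale. All members are 21 or 22 bases long, so CPM was compared between them without scaling for length. CPM is a share of miRNA reads, in which fewer cells and less RNA per cell cannot be told apart. The miR-16-5p entry spans 44 bases over both of its loci, and its reads mapping to several places were even in number in every library. Such reads may have been counted at each locus, which was not tested. If so, its CPM is too high beside the other members. miR-16-5p was the most abundant member, at 53446 ± 3650 CPM without 4SU (SD, n = 4 Control libraries), 64315 ± 3845 with 4SU in DMSO and 59362 ± 4776 with 4SU in PlaB. Over all 12 libraries it ranked 4 among the 2652 miRNAs. miR-15b-5p ranked 38, with Control, DMSO and PlaB means of 3407 ± 343, 3453 ± 259 and 3429 ± 288 CPM.

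miR-15a-5p, processed from the hairpin next to MIR16-1, ranked 59, with means of 1321 ± 42.7, 1546 ± 108 and 1319 ± 111 CPM. miR-15b-3p ranked 135, with 266 ± 22.5, 232 ± 10.6 and 204 ± 20.8 CPM in the same order of conditions. miR-195-5p ranked 205, with 66.5 ± 11.7, 71.2 ± 11.9 and 68.0 ± 15.9 CPM. The order miR-16-5p, miR-15b-5p, miR-15a-5p, miR-15b-3p, miR-195-5p was the same in each of the 12 libraries, and no 2 neighbours in it overlapped. The 5 members made up 5.41% to 7.52% of all counted reads, and miR-16-5p alone 91.2% to 93.0% of the members' counted reads. The share of miR-16-5p would be lower, and that of the members could differ, if its reads were counted at each locus.

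Total miR-16-5p and miR-15a-5p were higher in DMSO than in Control in every experiment. In PlaB, which also had 4SU, miR-16-5p was higher than in Control in 4 experiments, and miR-15a-5p was higher in 2 and lower in 2. miR-16-5p was at 52040, 49369, 57966 and 54408 CPM in Control replicates 1 to 4 and at 63513, 62487, 69925 and 61335 CPM in DMSO. miR-15a-5p was at 1336, 1281, 1293 and 1374 CPM in Control and at 1564, 1677, 1416 and 1525 CPM in DMSO. Neither overlapped between these conditions. That was also the case, in the same direction, for 4.9% of the Initial miRNA Dataset, the 143 miRNAs that exceeded 100 CPM in each library and are listed in MirGeneDB, a curated miRNA catalogue.

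Read counts of these 143 miRNAs were tested by the quasi-likelihood test of edgeR with Benjamini-Hochberg adjustment over all 143. In DMSO against Control, 0 of the 4 members in the dataset passed an adjusted p of 0.05 (background 4.2% of the 143), and 2 of the 4 had an unadjusted p under 0.05 (background 14.0%). miR-16-5p was higher by 0.29 on the log2 scale (SE 0.105, edgeR adjusted p = 0.195) and miR-15a-5p by 0.25 (SE 0.102, edgeR adjusted p = 0.255). With the experiment as a block, as the replicate numbers pair the read counts, the edgeR adjusted p was 0.0161 for miR-16-5p, which then rose, and 0.0501 for miR-15a-5p. The blocked fit called 24 of the 143 miRNAs (16.8%) against 6 without the block. The exact permutation test of log2 CPM, which ignores the pairing, gave p = 0.0286 for each of these 2 miRNAs, the smallest value 4 against 4 libraries can give (two-sided). With the experiments paired, sign flips gave an exact p = 0.125 for each, the smallest that 4 experiments allow.

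The total level of the members did not pass the threshold in PlaB. In PlaB against DMSO, 0 of 4 members passed (edgeR; background 0.699%), 1 of the 4 had an unadjusted p under 0.05 (background 2.8%), and DESeq2 also called 0 of 4, here and in the other 2 comparisons of read counts. miR-15a-5p was at 1271, 1188, 1378 and 1437 CPM in PlaB replicates 1 to 4, below the DMSO library of the same experiment in 4 of 4 experiments, with a difference of -0.24 on the log2 scale (SE 0.102, edgeR adjusted p = 0.921). The PlaB and DMSO ranges of miR-15a-5p overlapped through replicate 3 of DMSO. miR-16-5p differed by -0.12 (SE 0.105, edgeR adjusted p = 0.921), miR-15b-3p by -0.20 (SE 0.115, edgeR adjusted p = 0.921) and miR-15b-5p by -0.02 (SE 0.0932, edgeR adjusted p = 0.998). For miR-15b-5p the 95% interval of that log2 difference was -0.22 to 0.18, and its sign changed under 12 alternatives.

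miR-15b-3p had its lowest levels in PlaB. It was at 287, 246, 247 and 283 CPM in Control replicates 1 to 4 and at 212, 229, 190 and 184 CPM in PlaB, so all 4 PlaB libraries were below all 4 Control libraries (background 4.9% of the 143). The log2 difference from Control was -0.37 (SE 0.115) and did not pass after adjustment (edgeR adjusted p = 0.140), as for the other 3 members tested (0 of 4, background 3.5%; 1 of 4 at an unadjusted p under 0.05, background 6.99%). Reads of miR-15b-5p, the guide strand of the same hairpin, were 11.4 to 20.2 times those of miR-15b-3p over the 12 libraries. miR-195-5p, which is under the 100 CPM limit, was tested among 537 miRNAs with enough reads and differed by 0.12 in DMSO against Control (SE 0.216, edgeR adjusted p = 0.899) and by -0.08 in PlaB against DMSO (SE 0.217, edgeR adjusted p = 0.992).

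The second comparison asked which members acquired T>C conversions during 4 h of 4SU. Conversions were tested by the same edgeR functions with the covered T positions as offset. In DMSO against Control, 3 of the 4 members in the dataset rose, against a background of 82.5% of the 143 miRNAs. The median log2 fold change of the 4 members was 2.69, beside 3.16 over the 143.

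miR-16-5p carried 48, 110, 139 and 124 conversions in Control replicates 1 to 4, a rate of 0.0111%, 0.0187%, 0.0265% and 0.0191%. In DMSO it carried 2739, 2956, 2773 and 1600 conversions, a rate of 0.223%, 0.290%, 0.392% and 0.266%. Its rate was therefore 15.4-fold higher in the fit (log2 fold change 3.95, SE 0.225, edgeR adjusted p = 1.43e-21), and in DMSO it ranked 44 of the 143. Of its 713834 counted reads in DMSO, 1.31% carried a conversion, beside 0.098% in Control. Its counts of reads and of conversions may hold the same read at each locus.

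miR-15b-5p had a rate of 0.0182%, 0.0308%, 0.0141% and 0.0129% in Control replicates 1 to 4 and of 0.123%, 0.0909%, 0.168% and 0.109% in DMSO. It rose by 2.66 on the log2 scale (SE 0.393, edgeR adjusted p = 4.40e-08). miR-15a-5p had 0.0321%, 0.0281%, 0.0368% and 0.00436% in Control and 0.109%, 0.104%, 0.299% and 0.153% in DMSO, from 18 and 178 conversions in all. It rose by 2.72 (SE 0.603, edgeR adjusted p = 7.57e-05). For these 3 miRNAs every DMSO library was above every Control library, as for 70.6% of the 143.

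According to the study, comparing the synthesis of different miRNAs would need a time course, so the order below is of measured T>C rates only. In the DMSO libraries miR-16-5p had the highest rate of these 3 members in 4 of 4 experiments. Its rate was 1.31 to 2.78 times that of miR-15a-5p and 1.81 to 3.19 times that of miR-15b-5p in the same library. The rates of miR-15a-5p and miR-15b-5p did not keep one order, since miR-15a-5p was higher in 3 of 4 DMSO libraries. The mean DMSO rates of miR-15a-5p (0.166%) and miR-15b-5p (0.123%) were both under the median of the 143 miRNAs (0.187%), and that of miR-16-5p (0.293%) was above it.

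miR-15b-3p was the member of the dataset that did not pass. It had 5 conversions at 19712 covered T positions in Control and 7 at 23515 in DMSO, with mean rates of 0.0283% and 0.0346% (log2 fold change 0.25, SE 1.26, edgeR adjusted p = 0.867). The 95% interval of that log2 fold change, -2.28 to 2.79, held the value of 2.66 fitted for the other strand of its hairpin, so at this depth a rise of that size could not be told from none. It was -0.74 without DMSO replicate 3 and -0.20 without Control replicate 4. In DMSO it ranked 122 of the 143 by mean rate.

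miR-195-5p had conversions only in DMSO libraries. It had 0 conversions at 2184 covered T positions in Control, which allows a rate of up to 0.137%, and 0 at 1882 positions in PlaB, which allows up to 0.159%. In DMSO it had 2, 2, 12 and 0 conversions in replicates 1 to 4, at 1095, 879, 480 and 688 positions. The pooled DMSO rate of 0.509% was 3.71 times the Control limit and 3.19 times the PlaB limit, with the limit of 3 conversions set over each group. These are not lower bounds, because most DMSO conversions came from replicate 3. Without that library the pooled DMSO rate was 0.150%, close to the Control limit and under the PlaB limit.

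In the fit over the 239 miRNAs with at least 10 conversions in all, the adjusted p of miR-195-5p was 0.0119 in DMSO against Control (edgeR, background 80.8% higher) and 0.0347 in PlaB against DMSO (edgeR, background 35.6% lower). With all 16 conversions in DMSO, it met the minimum of 10 only through the condition in which it was high, so these p-values depend on that choice and nothing is read from them. DMSO replicate 3 held 12 of the 16 conversions. Without it the pooled DMSO rate was 0.150%, and both values were above 0.05 (edgeR adjusted p = 0.110 and 0.207). That was also the case in PlaB against DMSO without any 1 of the PlaB libraries (edgeR adjusted p = 0.0567 to 0.0905), and in both comparisons with DESeq2 (adjusted p = 0.131 and 0.215) and with the experiment as a block (edgeR adjusted p = 0.0996 and 0.191), and exact permutation of the rates gave p = 0.143 in each comparison.

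The third comparison asked how PlaB altered the labelling. miR-16-5p and miR-15a-5p fell, whereas miR-15b-5p and miR-15b-3p did not pass the threshold, so that 2 of 4 members fell against a background of 48.3% of the 143 miRNAs. The median log2 fold change was -1.46 over the 4 members and -1.23 over the 143.

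miR-16-5p had a rate of 0.0909%, 0.138%, 0.112% and 0.107% in PlaB replicates 1 to 4, from 2347 conversions in all. Every PlaB library was below every DMSO library and above every Control library. The fitted rate was 2.62-fold lower than in DMSO (95% interval 1.98 to 3.46, log2 fold change -1.39, SE 0.200, edgeR adjusted p = 1.89e-07). Within experiments the PlaB rate was 0.408, 0.475, 0.285 and 0.401 of the DMSO rate.

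miR-15a-5p had a rate of 0.0297%, 0.0365%, 0.0847% and 0.0730% in PlaB replicates 1 to 4, from 37 conversions. These too were all below the 4 DMSO values, as for 46.2% of the 143 miRNAs. The fitted rate was 2.88-fold lower (95% interval 1.33 to 6.25, log2 fold change -1.53, SE 0.555, edgeR adjusted p = 0.0218). The call was lost without DMSO replicate 3 (log2 fold change -1.09, edgeR adjusted p = 0.162), without PlaB replicate 1 (-1.33, edgeR adjusted p = 0.0501) and without PlaB replicate 2 (-1.37, edgeR adjusted p = 0.0631). Within experiments the PlaB rate was 0.273, 0.350, 0.283 and 0.478 of the DMSO rate.

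miR-15b-5p had 0.132%, 0.0984%, 0.0955% and 0.130% in PlaB replicates 1 to 4, which lay inside the DMSO range of 0.0909% to 0.168%. Within experiments the PlaB rate was 1.07, 1.08, 0.568 and 1.20 of the DMSO rate, so that only experiment 3 was lower. The log2 fold change was -0.10 (SE 0.334, 95% interval -0.77 to 0.57, edgeR adjusted p = 0.829), an interval that holds a fall of up to 1.71-fold, and it was 0.08 without DMSO replicate 3. miR-15b-3p had 1 conversion in PlaB, and its interval of -5.03 to 1.48 was too wide to place it.

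Relative to Control, the PlaB rates of miR-16-5p and miR-15b-5p were higher by the same 2.56 on the log2 scale (SE 0.215 and 0.399, edgeR adjusted p = 5.86e-15 and 2.56e-07). miR-15a-5p was higher by 1.19 (SE 0.641) and did not pass (edgeR adjusted p = 0.108). Thus 2 of 4 members were above the unlabelled background in PlaB, against 53.8% of the 143 miRNAs. In PlaB the mean rate of miR-15b-5p, 0.114%, was as high as that of miR-16-5p, 0.112%, which was the higher of the 2 in every DMSO library and in 2 of 4 PlaB libraries.

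The study's measure of the remaining labelling divides the PlaB mean by the DMSO mean once the Control mean has been taken off each. It was 0.339 for miR-16-5p, 0.218 for miR-15a-5p and 0.917 for miR-15b-5p. Among the 135 miRNAs whose DMSO mean was above Control these ranked 75, 47 and 120 from the lowest, beside a median of 0.309. The study used a narrower set, filtered further for labelling above background, so these ranks and medians are not those of its set. The value of miR-15a-5p was 0.337 without subtraction of Control, beside a median of 0.392 (rank 53 of 135), and 0.317 without DMSO replicate 3, beside a median of 0.315 (rank 68 of 134). miR-16-2-3p ranked 99, with 0.554. The DMSO rate of miR-15b-3p was too close to that of Control, and conversions of miR-195-5p too few, for a ratio.

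Whether 2 members differed in their response was tested on the log2 ratio of their rates within each library, for 6 pairs of miR-16-5p, miR-15a-5p, miR-15b-5p and miR-16-2-3p. miR-16-5p over miR-15b-5p was at 0.85, 1.66, 1.21 and 1.27 in DMSO replicates 1 to 4 and at -0.56, 0.47, 0.21 and -0.30 in PlaB. All 4 PlaB values were below all 4 DMSO values. The difference was -1.30 (SE 0.286, exact permutation p = 0.0286, the smallest possible), and it was 0.171 after Benjamini-Hochberg adjustment over the 6 pairs. With the experiments paired, sign flips gave an exact p = 0.125, the smallest that 4 experiments allow, the ratio being lower in 4 of 4.

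miR-15a-5p over miR-15b-5p was at -0.17, 0.21, 0.83 and 0.50 in DMSO and at -2.0, -1.33, -0.14 and -0.80 in PlaB. It was lower in 4 of 4 experiments, by -1.41 (SE 0.450, exact permutation p = 0.0571, adjusted 0.171), with DMSO replicate 1 inside the PlaB range. miR-16-5p over miR-15a-5p differed by 0.11 (SE 0.422, exact permutation p = 0.829), and was lower in 2 of 4 experiments. Its sign changed without DMSO replicate 3 (-0.06), PlaB replicate 1 (-0.03) or PlaB replicate 2 (-0.15). The other 3 pairs, each with miR-16-2-3p, had exact permutation p-values of 0.314 to 0.371.

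The other strands of these hairpins and the neighbouring MIR497 formed a list of 6. The sequences of 2 of them are shown, with the seed in capitals (RefSeq), because they tell the 2 loci of miR-16-5p apart.
miR-16-1-3p: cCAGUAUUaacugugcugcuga
miR-16-2-3p: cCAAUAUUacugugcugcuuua

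miR-16-2-3p, from SMC4, had Control, DMSO and PlaB means of 902 ± 195, 928 ± 78.2 and 798 ± 73.9 CPM (SD, n = 4). miR-16-1-3p, from DLEU2, had means of 17.3 ± 2.72, 5.36 ± 1.37 and 2.83 ± 3.45 CPM in that order. Whether these levels follow the output of each locus was not tested.

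miR-16-2-3p, which shares its host intron with miR-15b-5p, rose with 4SU by 3.09 on the log2 scale (SE 0.572, edgeR adjusted p = 4.61e-06). Its rate was 0.177%, 0.157%, 0.286% and 0.376% in DMSO replicates 1 to 4 and 0.0412%, 0.238%, 0.170% and 0.157% in PlaB. The difference in PlaB against DMSO was -0.67 (SE 0.483, 95% interval -1.64 to 0.30, edgeR adjusted p = 0.267). The PlaB and DMSO ranges overlapped, and the rate was lower in 3 of 4 experiments and higher in experiment 2.

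Reads of miR-16-1-3p were few, and a large part of them in the labelled libraries carried a conversion. It had 34, 43, 31 and 33 reads in Control replicates 1 to 4, none with a conversion. In DMSO it had 22, 22, 7 and 11 reads, of which 8, 10, 3 and 3 carried one, or 38.7% of 62 reads. In PlaB it had 3, 3, 0 and 15 reads, and 5 of the 15 in replicate 4 carried a conversion.

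Per covered T position the DMSO rate of miR-16-1-3p was 5.56% (24 of 432, Wilson 95% interval 3.76% to 8.13%). This estimate was 18.2 times the limit in Control, where 0 of 983 positions allows up to 0.305%. Exact permutation of these rates gave p = 0.0286. Its level was lower in DMSO than in Control in every experiment, at 13.8 to 20.4 CPM in Control and 3.45 to 6.72 CPM in DMSO. Among the 537 miRNAs the difference was -1.65 (SE 0.576, edgeR adjusted p = 0.130). In PlaB against Control it fell by 2.54 on the log2 scale (SE 0.631, edgeR adjusted p = 0.0191, background 6.33% lower). That call was lost without Control replicate 1, PlaB replicate 1 or PlaB replicate 2, with edgeR adjusted p-values of 0.0523, 0.0674 and 0.0735.

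**Figure D1:**
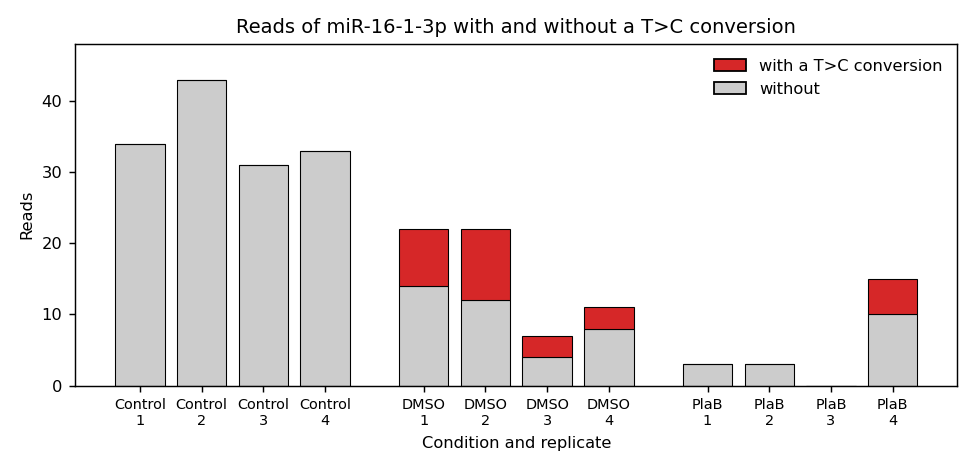
Number of reads of miR-16-1-3p in each library, divided into reads with and without a T>C conversion. Control libraries hold 31 to 43 reads with no conversion, and DMSO libraries 7 to 22 reads of which 3 to 10 carry one.

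The remaining 4 miRNAs of the list were near or at the detection limit. miR-195-3p was at 4.61 to 12.6 CPM in Control and at 0.508 to 3.35 CPM in DMSO, a log2 difference of -2.06 (SE 0.594) that did not pass among the 537 miRNAs (edgeR adjusted p = 0.0542) and did with the block (edgeR adjusted p = 0.0470). It met the read minimum of the 537 mainly through Control, the condition in which it was high. These p-values therefore depend on that choice, and nothing is read from them. miR-497-5p, which has the family seed, had means of 18.1 ± 8.51, 19.1 ± 3.61 and 13.0 ± 6.56 CPM over the same conditions, with 0 conversions in every library. miR-15a-3p had 27 reads in the 12 libraries and miR-497-3p had 0. Of the 6, 1 was in the dataset of 143, and 1 of 1 rose in conversions with 4SU (background 82.5% of the 143) and 0 of 1 fell in PlaB against DMSO (background 48.3%).

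Relatives with a similar seed from other loci formed a second list of 6, of which 4 (miR-424-5p, miR-503-5p, miR-103a-3p and miR-107) were in the dataset, while miR-646 had 0 reads and miR-6838-5p 10 reads over the 12 libraries. In read counts 0 of 4 passed in any comparison. In conversions 4 of 4 rose with 4SU (background 82.5% of the 143), and 1 of 4 fell in PlaB against DMSO (background 48.3%). Of the 13 conversions of miR-107 in DMSO, 11 were in replicate 2. Short of the threshold in PlaB against DMSO were miR-503-5p (-2.09, edgeR adjusted p = 0.117), miR-424-5p (-1.44, edgeR adjusted p = 0.286) and miR-107 (-0.83, edgeR adjusted p = 0.630). They held 33, 42 and 17 conversions over the 12 libraries. For miR-503-5p every PlaB library was below every DMSO library, as for 46.2% of the 143. The 1 that fell was miR-103a-3p (log2 fold change -1.69, SE 0.292, edgeR adjusted p = 6.39e-06). Reads of miR-103a-3p that mapped to several places were 69.9% of its reads in Control, 53.0% in DMSO and 99.4% in PlaB, and their part in that result was not tested. miR-424-5p, which shares the family seed and lies on chromosome X, had means of 262 ± 56.5, 251 ± 51.9 and 215 ± 45.5 CPM over those conditions. Of the summed CPM of all miRNAs with that seed, miR-16-5p gave 91.1% to 93.0% in every library. This share too would be lower if its reads were counted at each of its loci.

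The miRNAs whose level varied most like that of miR-16-5p over the 12 libraries (Pearson r of log2 CPM, among the 143) were miR-130a-3p, miR-26b-5p and miR-122-3p, with r of 0.878, 0.835 and 0.797. The r of miR-16-5p was 0.532 with miR-15a-5p and 0.525 with miR-15b-5p, beside a median of -0.02 over the dataset. For miR-15a-5p the most alike were miR-502-3p, miR-96-5p and miR-107, with r of 0.816, 0.773 and 0.751. For miR-15b-5p they were miR-122-3p, miR-374b-5p and miR-196a-5p, with r of 0.632, 0.550 and 0.544. These values describe 12 libraries that share experiments and conditions. For the log2 T>C rate over the 8 DMSO and PlaB libraries, the most alike were miR-425-5p, miR-885-5p and miR-128-3p for miR-16-5p, with r of 0.983, 0.982 and 0.972, which include the difference between the conditions. For miR-15a-5p they were let-7f-5p, miR-128-3p and miR-500a-3p, with r of 0.916, 0.911 and 0.876, and for miR-15b-5p miR-200b-3p, miR-769-5p and miR-378a-3p, with r of 0.736, 0.688 and 0.656. Between members, r was 0.843 for miR-16-5p and miR-15a-5p and 0.176 for miR-16-5p and miR-15b-5p. The median r over the dataset was 0.69 for miR-16-5p, 0.56 for miR-15a-5p and 0.0835 for miR-15b-5p. For miR-15a-5p and miR-15b-5p r was 0.359, and for miR-15b-5p and miR-16-2-3p, from the same intron, it was -0.087.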

How the data were processed

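The authors' files come from trimmed small RNA reads aligned to GRCh38 by the nf-core SLAMseq workflow v1.0.0, in which SLAM-DUNK counted over mature miRNA coordinates (miRBase version 22) and reads with several mapping places were kept. The deposited tables give counts of reads, of T>C conversions and of covered T positions, the authors' CPM, and the T>C conversion rate as a fraction, printed here in percent. Covered T positions and other deposited columns without a unit of their own were used as counts.

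The members and the lists of relatives were chosen with earlier results of these data known. Named miRNAs are the 5 members, those 2 lists, all miRNAs with the family seed, and the 3 most alike in level and in T>C rate to miR-16-5p, miR-15a-5p and miR-15b-5p. Read counts (TMM factors over all miRNAs) and conversions (offset the log of covered T positions) were fitted over the 3 conditions with edgeR 4.0.16 in R 4.3.3 and adjusted over the 143 miRNAs over 100 CPM in every library and present in MirGeneDB. miRNAs under 100 CPM were taken from fits over 537 (reads) or 239 (conversions) miRNAs. The functions were tested on simulated data. Other tests were exact permutations of 4 against 4 libraries, two-sided, with 0.5 conversions added to log2 rates. Conditions came from the labels. Replicate numbers mark the 4 experiments, and deviations of log2 CPM from the condition mean correlated between libraries of the same number, with a lowest r of 0.274, so the blocked value is printed where it changes a call. For T>C rates the lowest such r was -0.0790. Where a condition had 0 conversions, 3 were taken as the limit over the group, and this and the Wilson intervals cover the error of counting only, as the libraries had no molecular identifiers. Alternatives included RLE factors, DESeq2 1.42.0, other filters and each library left out.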

Additional observations from a re-analysis of the deposited data

Results flagged for a closer look

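Among 42 groups of 4 libraries (CPM and T>C rate of the 5 members, miR-16-2-3p and miR-16-1-3p), 5 held a library apart from the other 3 by Dixon's criterion at 95%. Chance marks about 1 in 20 for continuous values, which does not hold for rates from few conversions. A group with 1 rate above 0 is always marked, and a group at 0 throughout never is. miR-195-5p had a T>C rate of 2.50% in DMSO replicate 3, beside 0% to 0.228% in the other 3. miR-16-1-3p had a rate of 4.76% in PlaB replicate 4 and 0% in the others, one of which had no read. miR-15b-3p had a rate of 0.0245% in PlaB replicate 2, from 1 conversion, and 0% in the others, and stood at 248 CPM in DMSO replicate 1, beside 226 to 229 CPM. miR-15b-5p stood at 3916 CPM in Control replicate 3, beside 3173 to 3295 CPM.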

How the results depend on the processing

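Of 828 values of single miRNAs under the alternatives, 769 kept their direction and their side of the threshold where a test was made, 16 lost a call, 8 gained one, 2 moved without a test and 33 changed sign, 0 of them past the threshold before or after. The calls of miR-16-5p in conversions held under all 19 alternatives in each comparison, and those of miR-15a-5p and miR-15b-5p in DMSO against Control also under all 19. miR-15b-5p in PlaB against DMSO stayed short of the threshold in all 19, with edgeR or DESeq2 adjusted p of 0.656 to 0.968. The block changed the calls named in the results and no other call of a member. The difference of -1.30 for miR-16-5p over miR-15b-5p had an exact p of 0.125 with the block, and subtracting the Control mean rate made that of miR-15a-5p over miR-15b-5p -2.58 (exact permutation p = 0.0286). With 1 library left out, the difference was -1.47 to -1.13 for miR-16-5p over miR-15b-5p and -1.72 to -1.10 for miR-15a-5p over miR-15b-5p. In read counts of PlaB against DMSO, miR-15b-5p was at 0.035 with DMSO replicates 1 and 2 left out, 0.038 with the 8 libraries alone and 0.027 with RLE factors or DESeq2. In DMSO against Control without DMSO replicates 1 and 2, miR-16-2-3p was at -0.015 and miR-497-5p at -0.073. miR-16-5p over miR-15a-5p was at -0.025 when reads with a conversion were counted per read. With 1 library left out, log2 differences in read counts were -0.057 to 0.064 for miR-15b-5p and -0.18 to 0.062 for miR-195-5p in PlaB against DMSO, -0.021 to 0.079 for miR-15b-5p, -0.072 to 0.16 for miR-16-2-3p and -0.10 to 0.44 for miR-497-5p in DMSO against Control, and -0.026 to 0.055 for miR-15a-5p, -0.012 to 0.092 for miR-15b-5p and -0.052 to 0.19 for miR-195-5p in PlaB against Control. Those in conversions were -0.74 to 1.12 for miR-15b-3p in DMSO against Control and -0.23 to 0.080 for miR-15b-5p in PlaB against DMSO, and miR-16-5p over miR-15a-5p was -0.15 to 0.34.

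Counts of calls over all miRNAs moved more, with fewer or more miRNAs tested under the filters, and the cause of the other moves was not tested. With only the 60 miRNAs over 1000 CPM, conversions gave 56 calls in DMSO against Control, 48 in PlaB against Control and 40 in PlaB against DMSO (119, 78 and 69 of the 143), and read counts gave 0 in each (6, 5 and 1 of the 143). With the wider filter, conversions gave 194 and 128 in the first 2 comparisons of these and read counts gave 32, 36 and 2. Without DMSO replicates 1 and 2, PlaB against DMSO gave 44 calls in conversions (49 of 239 in the wider set, from 86) and 0 in read counts, and DMSO against Control gave 3 in read counts (17 of 537, from 32). The replicate block gave 24 and 8 calls in read counts for DMSO and for PlaB against Control, and 60 and 6 of 537 for DMSO against Control and PlaB against DMSO. DESeq2 gave 10 in read counts of DMSO against Control and 6 of 537 in PlaB against DMSO. The 8 libraries compared alone gave 0 in read counts of PlaB against DMSO. Leaving out 1 library gave 0 to 1 calls in that comparison (also 0 to 1 of 537) and 15 to 37 of 537 in DMSO against Control. Depth limits miR-15b-3p, miR-195-5p and miR-16-1-3p, which held 13, 16 and 29 conversions over the 12 libraries.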
